A study of Mus musculus with 21 samples.

Results

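The gastrocnemius transcriptome of mice that had ever trained on a treadmill was compared with that of mice that had never trained. All 21 libraries of the study entered the comparison, 14 from ever trained mice and 7 from never trained mice, with 1 library per mouse. The ever trained mice came from a pair of groups that were given equal weight: the Active group (7 mice, 6 weeks of training) and the Activity Reduction group (7 mice, 4 weeks of training and then 2 weeks without running). The never trained mice were the Inactive group (7 mice, 6 weeks without training). The mice were female C57BL/6NJ, aged 10 weeks at the start, and RNA was taken from the whole medial belly of the muscle. Training was forced treadmill running on 5 days per week in sessions of up to 40 min, each a warm-up followed by running at 70% of maximal speed that was lengthened over the first 3 weeks. Mice of all 3 groups ran maximal tests, the last a few days before tissue collection, and were fasted before it, so the Inactive mice were not naive to the treadmill. The question was which differences in expression were common to both trained groups and were still present after 2 weeks without running, and a transcript therefore had to differ from the Inactive group in the same direction in each trained group.

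Endurance training is known to remodel limb muscle through contraction-linked signals such as calcium, energy sensors and mechanical load. These act on transcription of metabolic enzymes, contractile proteins, capillary and matrix components and secreted factors. The mouse gastrocnemius is mostly made of fast fibers, with a smaller share of slow, oxidative fibers that rely on mitochondria. Some adaptations decline within days or weeks once training stops, whereas others are known to outlast it. Bulk RNA holds every cell type of the muscle, and fewer cells of a type and less RNA per cell cannot be told apart in these data.

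Between 38482455 and 59785132 reads were counted on genes in each library, with a median of 48966851 in the ever trained and 53278181 in the never trained mice. Of 40853 genes in the count table, 16129 passed the filter on low counts and were tested. The summed level of 10 skeletal muscle fiber markers was between 177100 and 212400 CPM (counts relative to the library's own total) in every library. The libraries divided by mouse number. The 8 libraries with the lowest mouse numbers in the labels held between 844.8 and 2480 CPM of 24 liver transcripts in sum, whereas the 13 libraries with later numbers held between 193.5 and 393.5 CPM. The first 8 libraries were 7 of the 14 ever trained mice (5 Active and 2 Activity Reduction) and 1 of the 7 Inactive mice. This division held 91.5% of the variation of the first principal component, which carried 28.5% of the variance between libraries, whereas ever against never trained held 6.96% of it. The median log2 fold change of the 24 liver transcripts in ever trained mice was 0.76, with 0 of 24 at an unadjusted p-value under 0.05. Without Inactive replicate 1 all 24 were higher at that level, and with the division as a covariate the median was -0.08. For this reason values are given again with the division as a covariate and in the later 13 mice alone, where 2 Active, 5 Activity Reduction and 6 Inactive mice remained.

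**Figure D1:**
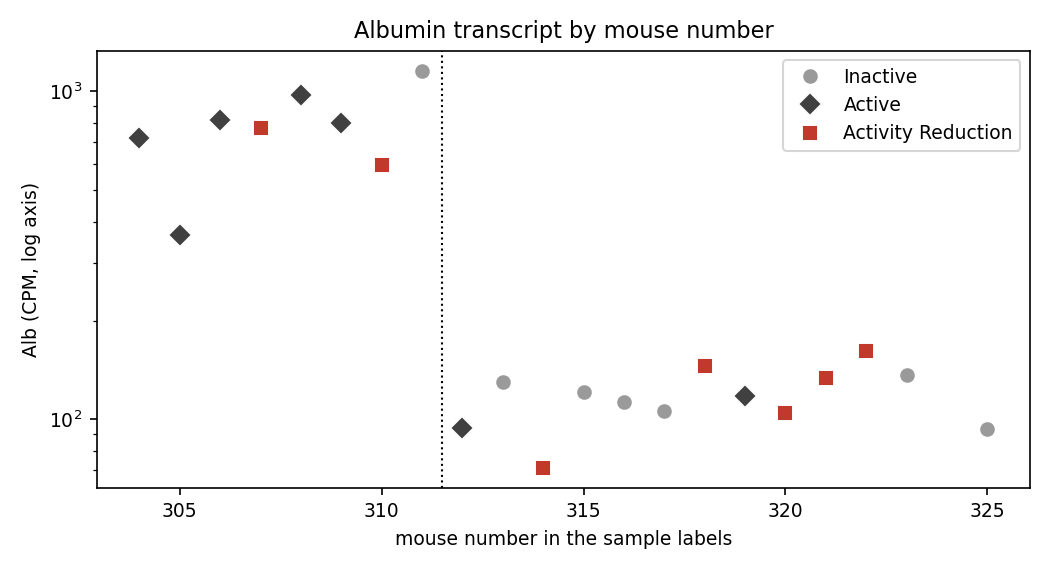
Level of the albumin transcript Alb in CPM (log axis) against the mouse number in the sample labels, with 1 point per library and 1 symbol per group. The 8 libraries left of the dotted line sit between 365.1 and 1155 CPM and the 13 libraries right of it between 71.11 and 161.2 CPM, and 7 of the 8 are from ever trained mice.

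With edgeR's quasi-likelihood test, 0 of 16129 transcripts (0%) passed an adjusted p-value under 0.05 and a log2 fold change over 0.25 in either direction with the same direction in both trained groups, and the smallest adjusted p-value was 0.27, shared by 11 transcripts. An unadjusted p-value under 0.05 was found for 1211 transcripts (7.51%) between ever and never trained mice. Of these, 1204 (7.46%) had the same direction in both trained groups, 611 with a higher mean in ever trained mice (3.79%) and 593 with a lower mean (3.68%). The split depended on the scaling, since 328 were higher and 1137 lower when libraries were scaled by their totals alone. Without Inactive replicate 1, 1159 were higher. A log2 fold change over 0.25 was left by 278 of the higher (1.72%) and 162 of the lower transcripts (1.00%). With DESeq2 in place of edgeR, 19 of the 15087 transcripts with an adjusted p-value (0.126%) passed the same thresholds, 11 higher and 8 lower, and without the threshold on fold change 36 passed, 14 higher and 22 lower. The 19 depended on single mice. Leaving out Inactive replicate 5 left 0 transcripts, Inactive replicate 4 left 7, Inactive replicate 2 left 8, Inactive replicate 3 and Active replicate 7 left 11 each, Activity Reduction replicate 3 left 31 and Inactive replicate 1, the single never trained mouse among the first 8, left 200.

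Because both trained groups were compared with the same Inactive mice, their log2 fold changes share those mice. The fold changes of Activity Reduction directly against Active do not use the Inactive mice. With 7 mice in each group, their sampling error is uncorrelated with that of the ever trained contrast. However, the mouse-number division is spread unevenly in both comparisons, so an effect of it would enter both. Both also rest on a shared estimate of spread, and p-values of single transcripts between the trained groups are given without the covariate. Between the trained groups 0 transcripts (0%) passed with edgeR, where the smallest adjusted p-value was 0.0531. With DESeq2 115 passed, 27 higher and 88 lower in the Activity Reduction group, so the 0 does not show that the trained groups were alike. With edgeR, 2149 (13.3%) were at an unadjusted p-value under 0.05. Of the 1204 transcripts with the same direction in both trained groups, 223 (18.5%) differed between the trained groups at an unadjusted p-value under 0.05. Their median size of log2 fold change was 0.19 against the never trained mice and 0.09 between the trained groups, and 700 were larger in the Active and 504 in the Activity Reduction group. Over all genes tested these medians were 0.07 and 0.10, and 8853 were larger in the Active and 7276 in the Activity Reduction group. The 1204 were picked for their difference from the never trained mice, which by itself raises the 0.19. An unadjusted p-value under 0.05 against the Inactive mice in each trained group separately was reached by 121 transcripts that were higher in both (0.750%) and 127 that were lower in both (0.787%).

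The 10 higher and 10 lower transcripts with the smallest p-values had log2 fold changes between 0.12 and 1.06 in size, and 10 of the 20 were under 0.25. With edgeR their adjusted p-values were 0.27 or 0.272, so none of the 20 passed on its own, whereas 19 of them were under an adjusted p-value of 0.05 with DESeq2. Each kept its direction with the mouse-number division as a covariate and in the later 13 mice, and all 20 were at an unadjusted p-value under 0.05 in both of these fits. Over all genes, 3.63% were higher and 3.7% lower at that level with the covariate, and 3.83% and 3.92% in the later mice. Both fits reuse mice by which the 20 were picked, so their counts are no independent evidence. The covariate moved the log2 fold changes of the 20 by at most 0.09. Between the trained groups, 4 of the 20 differed at an unadjusted p-value under 0.05 (Igfbp5, Smyd2, Kcnj11 and Qars), and the difference from the Inactive mice was larger in the Activity Reduction group for 9 and in the Active group for 11.

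**Figure D2:**
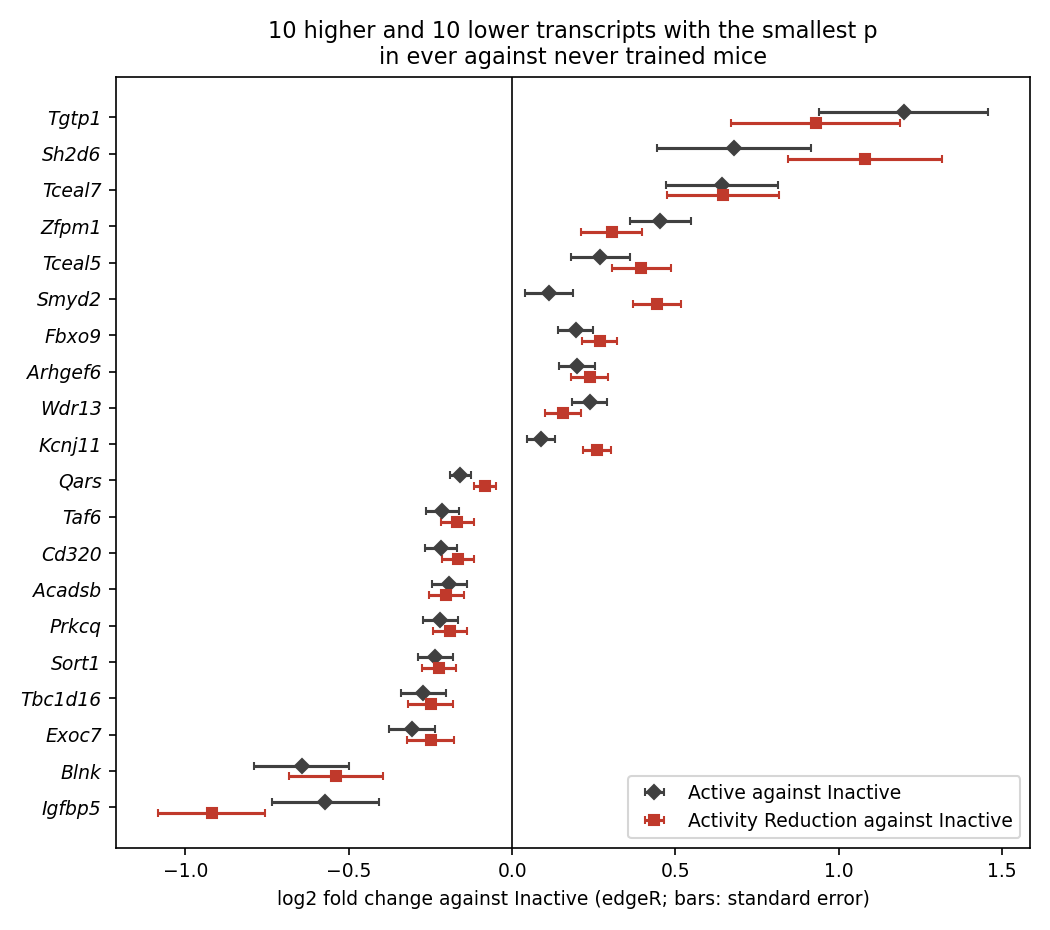
Log2 fold changes of the 10 higher and 10 lower transcripts with the smallest p-values, for Active (diamonds) and Activity Reduction (squares) against the same Inactive mice, with bars for the standard error. Both symbols lie on the same side of 0 for all 20, and those of Smyd2 and Kcnj11 lie farther from 0 in the Activity Reduction group.

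Igfbp5 had the smallest p-value of all transcripts tested. It encodes a secreted protein that binds insulin-like growth factors, which promote muscle growth, and is held in the extracellular matrix. The study had picked this transcript from the same libraries, so the values are no independent evidence. Its normalized count had a lowest value of 17798, a median of 20548 and a highest value of 27640 in the Inactive mice, 11754, 14143 and 19730 in the Active mice, and 7251, 11650 and 17159 in the Activity Reduction mice. All 14 ever trained mice were below the Inactive median and 12 were below the lowest Inactive mouse. The log2 fold change was -0.75 (SE 0.138, unadjusted p = 1.94e-05, adjusted p = 0.27 with edgeR, adjusted p = 0.00618 with DESeq2), and it was -0.77 with the division as a covariate and -0.89 in the later mice. It was larger in the Activity Reduction group (-0.92) than in the Active group (-0.57), with an unadjusted p of 0.0443 between them. Without Activity Reduction replicate 4, Igfbp5 was the 1 transcript that passed with edgeR, at an adjusted p-value of 0.0449. Of 16 tested members of the insulin-like growth factor axis, 2 were higher at an unadjusted p-value under 0.05 (12.5%, beside 3.79% of all genes). These were Igfbp3 and Igfbp7, also binding proteins, with log2 fold changes of 0.23 and 0.19, whereas Igf2 and Igf1r were at 0.05 and 0.07. The ligand Igf1 was at 0.30 (unadjusted p = 0.181), and at -0.08 with the mouse-number division as a covariate.

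Among the lower transcripts, Sort1 encodes sortilin, a sorting receptor that takes part in forming the vesicles that store the glucose transporter GLUT4. Its normalized count had a lowest value of 5136, a median of 5404 and a highest value of 6202 in the Inactive mice, 4402, 4527 and 5172 in the Active mice, and 4143, 4837 and 5059 in the Activity Reduction mice. All but 1 of the ever trained mice were below the lowest Inactive mouse, and the trained groups overlapped almost wholly (unadjusted p = 0.82 between them). Its log2 fold change was -0.23 (SE 0.0453, unadjusted p = 4.4e-05, adjusted p = 0.27 with edgeR), and the exact two-sided permutation test of 14 against 7 mice gave p = 4.3e-05, unadjusted for the number of transcripts. Exoc7 encodes a subunit of the exocyst, the complex that tethers vesicles to the plasma membrane. It ranged from 4550 to 5477 in the Inactive mice (median 5135), from 3471 to 4652 in the Active mice (median 3933) and from 3606 to 4566 in the Activity Reduction mice (median 4351). Of the ever trained mice 10 were below the lowest Inactive mouse. The log2 fold change of Exoc7 was -0.28 (SE 0.0611), and in the later 13 mice it was -0.39 and passed with edgeR (adjusted p = 0.0454). Tbc1d16, which encodes a Rab GTPase-activating protein, had a log2 fold change of -0.26 (SE 0.0593) with 11 ever trained mice below the lowest Inactive mouse. Of 45 vesicle transport members tested, a list that holds Exoc7 but neither Sort1 nor Tbc1d16, 0 were higher and 5 were lower at an unadjusted p-value under 0.05 (11.1%, beside 3.68% of all genes). The other 4 were Vps33a, Sec23a, Exoc3 and Vps41. In the later 13 mice 2 members were higher (4.44%) and 3 lower (6.67%), beside 3.83% and 3.92% of all genes.

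Blnk encodes an adaptor of B cell receptor signaling and was counted at a low level, with normalized counts from 92.95 to 150.2 in the Inactive mice, from 66.41 to 91.38 in the Active mice and from 61.8 to 123.4 in the Activity Reduction mice. Its log2 fold change was -0.59 (SE 0.123), and 12 of 14 ever trained mice were below the lowest Inactive mouse. Of 10 lymphocyte markers 2 passed the filter, and the summed level of the 10 was between 1.846 and 3.63 CPM in never trained and between 1.486 and 3.725 CPM in ever trained mice. The other lower transcripts of the 20 differed by less. They were Cd320, the receptor that takes up vitamin B12 bound to transcobalamin (-0.19), Prkcq, protein kinase C theta (-0.20), Taf6, a subunit of the general transcription factor TFIID (-0.19), Acadsb, a dehydrogenase of branched-chain amino acid breakdown (-0.20), and Qars, glutaminyl-tRNA synthetase (-0.12). Cct8, a subunit of the chaperonin that folds actin and tubulin, was the 1 transcript of 16129 (0.00620%) whose 14 ever trained mice were all below the 7 Inactive mice. Its normalized counts were from 5250 to 5416 in the Inactive, from 4520 to 5247 in the Active and from 4646 to 5174 in the Activity Reduction mice, a log2 fold change of -0.10 (SE 0.029, adjusted p = 0.407 with edgeR). There was no transcript whose ever trained mice were all above the Inactive mice (0%).

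**Figure D3:**
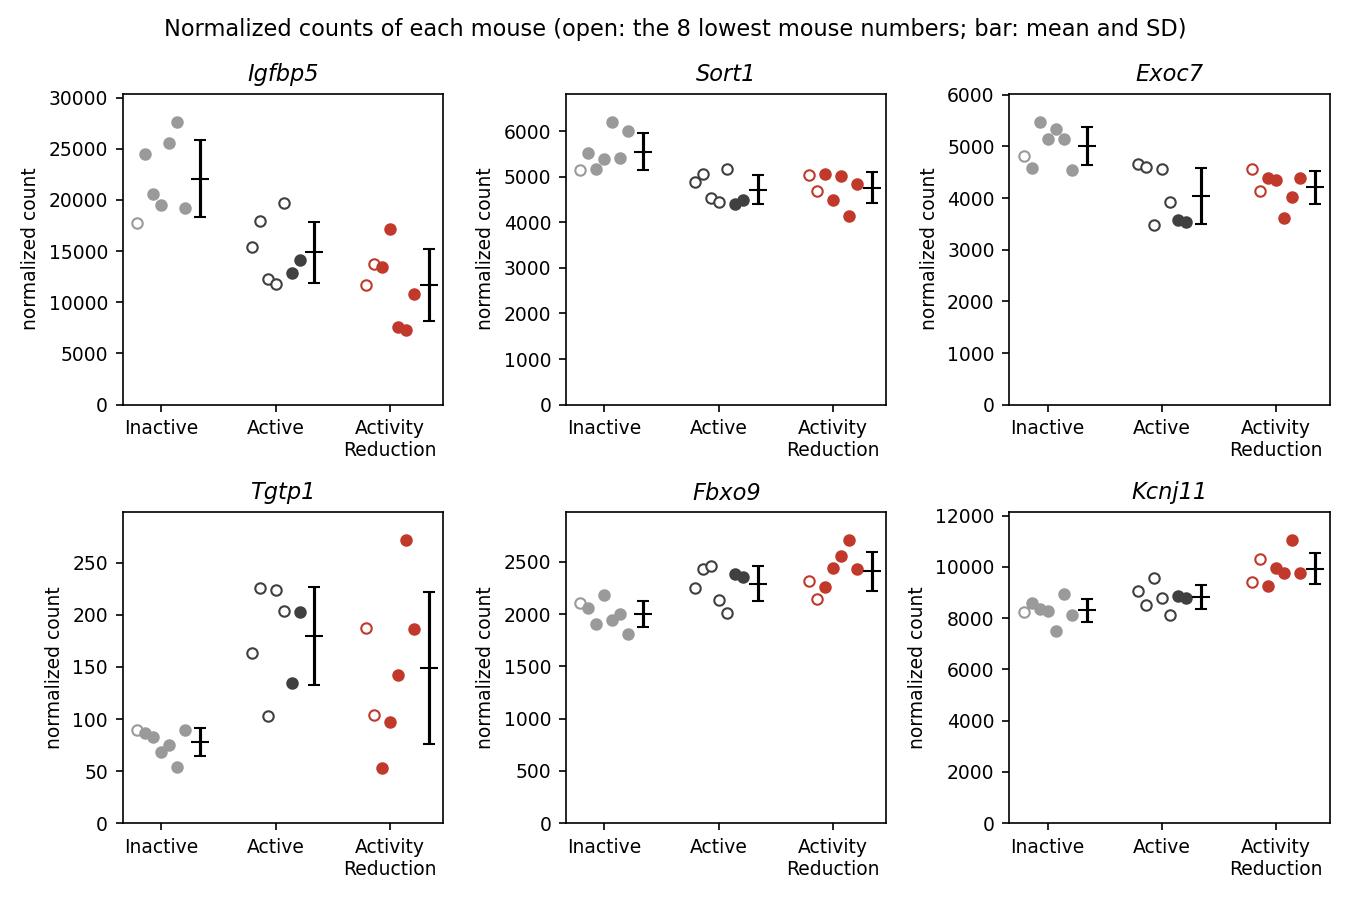
Normalized counts of Igfbp5, Sort1, Exoc7, Tgtp1, Fbxo9 and Kcnj11 in each mouse, with 1 point per mouse, open points for the 8 lowest mouse numbers, and the mean with its SD at the right of each group. In Igfbp5, Sort1 and Exoc7 most points of both trained groups lie below the Inactive points, and in Kcnj11 the Activity Reduction points lie above the Inactive points while the Active points overlap them.

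Among the higher transcripts, Fbxo9, which encodes a substrate receptor of a ubiquitin ligase, had the smallest p-value. Its normalized count ranged from 1808 to 2182 in the Inactive mice (median 2006), from 2008 to 2463 in the Active mice (median 2360) and from 2144 to 2707 in the Activity Reduction mice (median 2433). Of the ever trained mice 11 were above the highest Inactive mouse. The log2 fold change was 0.23 (SE 0.0475, unadjusted p = 7.25e-05, adjusted p = 0.27 with edgeR), with an unadjusted p of 0.19 between the trained groups. Arhgef6, an exchange factor for Rac and Cdc42, had a log2 fold change of 0.22 (SE 0.0486), and 13 of 14 ever trained mice were above the highest Inactive mouse. Zfpm1, a cofactor of GATA transcription factors, had a log2 fold change of 0.38 (SE 0.0819), with 0.45 in the Active and 0.30 in the Activity Reduction group.

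Tceal5 and Tceal7 are neighbours on the X chromosome and encode transcription elongation factor A-like proteins. Tceal7 had normalized counts from 874.7 to 1344 in the Inactive mice (median 935.3), from 1144 to 2347 in the Active mice (median 1656) and from 991 to 2505 in the Activity Reduction mice (median 1564). All 14 ever trained mice were above the Inactive median and 11 were above the highest Inactive mouse. The log2 fold change of Tceal7 was 0.64 (SE 0.151) and was nearly the same in the Active (0.64) and Activity Reduction (0.65) groups, and that of Tceal5 was 0.33 (SE 0.0781). Of the annotated exons of Tceal7, 19.4% overlap Bex1 on the opposite strand, and whether counting used strand is not given in the sources used here. Sh2d6, an SH2 domain protein, had a log2 fold change of 0.88 (SE 0.21) at normalized counts of 55.47 to 88.13 in the Inactive mice, and 13 of 14 ever trained mice were above all of them. Wdr13, a WD repeat protein, had a log2 fold change of 0.20 (SE 0.0472). Exon overlaps with an opposite-strand gene were 36.6% for Taf6 (Ap4m1), 31.1% for Smyd2 and 21.4% for Sort1. They were 13.5% for Cct8 (Usp16) and 10.3% for Fbxo9 (Cilk1). Several transcripts described below overlap as well, for example Folr2 (61.2%, Gm10602), Jund (52.6%), Akt1 (42.7%, Siva1) and Ldhd (41.6%, Znrf1). Further examples are Slc16a3 (40.1%, Csnk1d) and Esrra (29.6%, Trmt112), and Psmb9 and Tap1 overlap each other (19.6% and 12.4%). Reads of such partners cannot be told apart if strand was not used.

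Kcnj11 and Smyd2 met the direction rule, yet most of their difference lay in the Activity Reduction group. Kcnj11 encodes Kir6.2, the pore of the ATP-sensitive potassium channel, which couples the energy state of the fiber to its excitability. Its normalized count ranged from 7516 to 8956 in the Inactive mice (median 8283), from 8107 to 9581 in the Active mice (median 8791) and from 9265 to 11038 in the Activity Reduction mice (median 9764). The Activity Reduction mice were all above the Inactive mice and overlapped the Active mice at their lower end. The log2 fold change against the Inactive mice was 0.09 in the Active and 0.26 in the Activity Reduction group (unadjusted p = 0.000593 between them). Smyd2 encodes a lysine methyltransferase of cytoplasmic and nuclear proteins. Its log2 fold change against the Inactive mice was 0.11 in the Active and 0.44 in the Activity Reduction group, with medians of 8169 normalized counts in the Inactive, 9050 in the Active and 11097 in the Activity Reduction mice. The study had picked Smyd2 from the same libraries, so its values are no independent evidence. Smyd2 and Kcnj11 were the 2 transcripts (0.0124%) that passed with edgeR between Activity Reduction and Inactive, where 7.73% of all transcripts had an unadjusted p-value under 0.05, and 0 (0%) passed between Active and Inactive, where 10.9% did.

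Of the 39 lists of genes by function, the shares of higher members were largest for interferon response and antigen presentation, and for myoglobin, globins and heme synthesis. Beside 3.79% higher and 3.68% lower among all genes, 18 of 53 tested members of the interferon list (34%) and 5 of 14 of the globin list (35.7%) were higher at an unadjusted p-value under 0.05, and none of either was lower. The lists were chosen with earlier results of these data known, so the counts are a description.

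**Figure D4:**
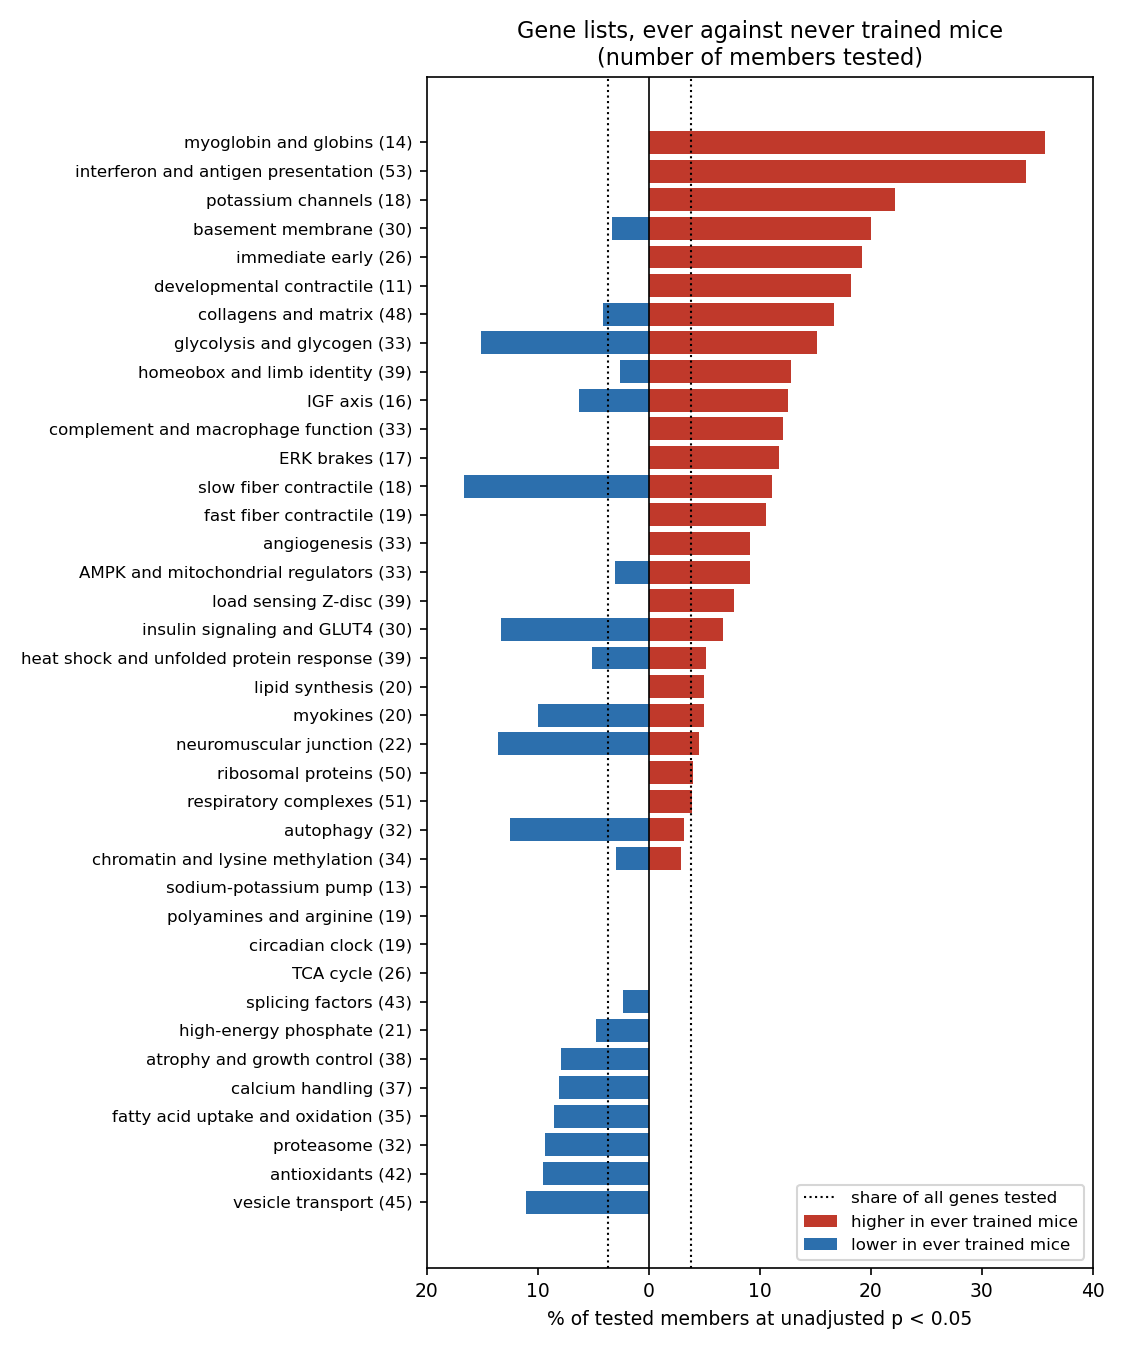
Share of tested members of the function lists at an unadjusted p-value under 0.05 with the same direction in both trained groups (number tested in brackets). Shares higher in ever trained mice are to the right and lower to the left, with dotted lines at the shares over all genes tested. The list of transcripts that the study named is not drawn. The bars of the globin list (35.7%) and the interferon list (34%) reach farthest to the right.

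Interferon gamma and type I interferons are cytokines that act through JAK kinases and STAT factors on a set of target genes. These include guanylate-binding proteins and immunity-related GTPases, which act inside cells against pathogens, the immunoproteasome, which cuts proteins into peptides, and the transporters and class I molecules that present those peptides. Of 53 members tested, 36 were higher in both trained groups and 3 were lower in both, beside 5347 and 4722 of all 16129 genes. The median log2 fold change was 0.16 beside 0.01 over all genes. The median was 0.27 in the Active and 0.08 in the Activity Reduction group. Of the 18 members, 18 were larger in the Active group, 18 were at an unadjusted p-value under 0.05 in the Active and 7 in the Activity Reduction group, and 4 differed between the trained groups at that level. Of all 53 members, 28 were at that level in the Active group (10.9% of all genes were). In the Activity Reduction group 8 were (7.73% of all genes), and 12 differed between the trained groups (13.3% of all genes).

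The promoters of 3 members are shown because they hold a match to a binding motif through which interferons act, each as the 250 bases before the annotated start of the canonical transcript (GRCm39, GENCODE vM39), written 5′ to 3′ on the strand of the gene. Capitals mark the match.
Tgtp1, chr11:48883148-48883397, minus strand: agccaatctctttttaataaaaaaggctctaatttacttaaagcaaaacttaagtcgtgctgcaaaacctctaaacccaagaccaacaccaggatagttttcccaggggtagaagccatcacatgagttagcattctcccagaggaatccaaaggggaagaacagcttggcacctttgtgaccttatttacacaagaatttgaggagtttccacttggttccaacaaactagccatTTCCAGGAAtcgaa
Gbp5, chr3:142202284-142202533, plus strand: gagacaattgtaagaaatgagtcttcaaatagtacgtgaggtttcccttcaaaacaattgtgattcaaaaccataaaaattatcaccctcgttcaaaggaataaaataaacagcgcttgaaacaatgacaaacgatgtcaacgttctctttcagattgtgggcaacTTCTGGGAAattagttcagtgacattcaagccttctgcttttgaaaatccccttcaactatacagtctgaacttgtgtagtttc
Stat2, chr10:128106102-128106351, plus strand: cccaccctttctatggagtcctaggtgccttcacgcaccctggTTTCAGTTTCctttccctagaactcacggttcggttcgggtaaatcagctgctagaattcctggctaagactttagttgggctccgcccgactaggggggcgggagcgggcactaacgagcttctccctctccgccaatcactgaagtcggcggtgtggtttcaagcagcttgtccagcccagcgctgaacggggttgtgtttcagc
The gamma-activated site was searched as TTCNNNGAA, which reads the same on both strands, and the interferon-stimulated response element as GAAA, 2 bases of any kind and GAAA on both strands, so that the match of Stat2 lies on the opposite strand. The gamma-activated site was in 894 of 13651 promoters of the same length (6.55%), in 14 of 53 of the list (26.4%) and in 5 of the 18 (27.8%). The response element was in 407 (2.98%) of all promoters, 14 of the list (26.4%) and 3 of the 18 (16.7%). These are matches of letters and not measured sites.

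Tgtp1 encodes an interferon-inducible GTPase and had the largest log2 fold change of the 20 transcripts, 1.06 (SE 0.231, adjusted p = 0.27 with edgeR and 0.00618 with DESeq2). Its normalized count ranged from 54.01 to 89.93 in the Inactive mice (median 82.49), from 103.3 to 225.8 in the Active mice (median 202.5) and from 53.42 to 271.7 in the Activity Reduction mice (median 142.3). The Active mice were all above the Inactive mice, whereas 1 Activity Reduction mouse was below all of them, and the exact two-sided permutation test of 14 against 7 mice gave p = 0.001462. Its log2 fold change was 1.03 with the mouse-number division as a covariate and 1.05 in the later mice. Of the Tgtp1 transcript, 97.4% matches its neighbour Tgtp2 at up to 99.8% identity, so the division of reads between them is uncertain. Tgtp2 had a log2 fold change of 0.82 (SE 0.252).

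The guanylate-binding proteins were counted at a higher level than Tgtp1, and the Active and Inactive mice overlapped in Gbp3, Gbp4, Gbp5 and Gbp9. Gbp5 ranged from 173 to 278.8 in the Inactive mice (median 200.7), from 269.8 to 408.1 in the Active mice (median 362.8) and from 197.8 to 431.5 in the Activity Reduction mice (median 268). The Active mice overlapped the Inactive mice only at their lower end, and the Activity Reduction mice spanned most of both. The log2 fold change was 0.56 for Gbp5 (SE 0.139), 0.73 for Gbp4 (SE 0.185), 0.45 for Gbp3 (SE 0.121) and 0.31 for Gbp9 (SE 0.0946). Iigp1, another immunity-related GTPase, had a log2 fold change of 0.72 (SE 0.174), with medians of 383.3 normalized counts in the Inactive, 711.9 in the Active and 453.5 in the Activity Reduction mice.

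In the peptide pathway, the immunoproteasome subunits Psmb8 and Psmb9 had log2 fold changes of 0.47 and 0.38, and the peptide transporter subunits Tap1 and Tap2 of 0.51 and 0.20. Among class I genes, H2-K1 was at 0.27, H2-D1 at 0.17, H2-Q7 at 0.72 and the shared light chain B2m at 0.20. B2m had log2 fold changes of 0.33 in the Active and 0.07 in the Activity Reduction group (unadjusted p = 0.0133 between them). H2-Q7 was low, with 9.479 to 57.14 normalized counts, and shares 55.5% of its transcript with H2-Q5. Among factors that carry the signal, Stat2 was at 0.22, Irf7 at 0.34 and Irf9 at 0.15.

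**Figure D5:**
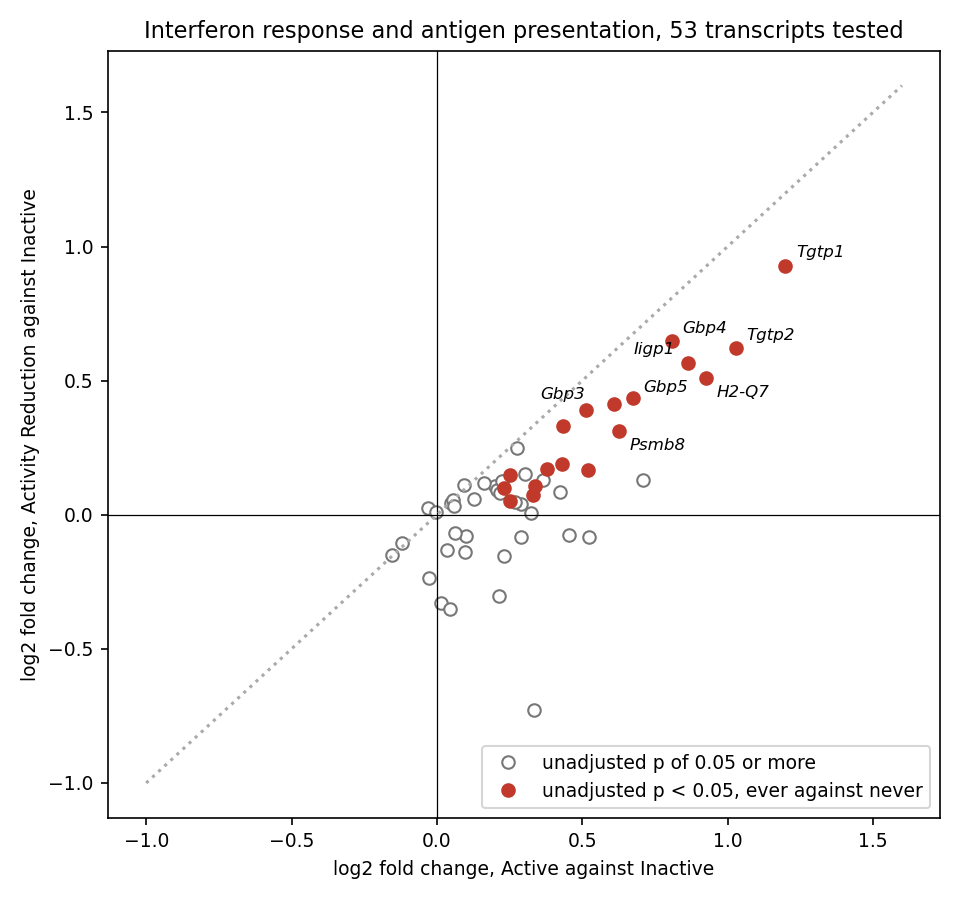
Log2 fold changes of the 53 tested members of the interferon and antigen presentation list, Active against Inactive (horizontal) and Activity Reduction against Inactive (vertical), with filled points for members at an unadjusted p-value under 0.05 in ever against never trained mice and a dotted line where both are equal. Both axes use the same Inactive mice. All 18 filled points lie above 0 on both axes and below the line of equal change.

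With the mouse-number division as a covariate, 13 members of the list were higher (24.5%, beside 3.63% of all genes) and 0 lower, and 11 of these were among the 18. In the later 13 mice, 11 were higher (20.8%, beside 3.83%), 10 of them among the 18, and 3 were lower (5.66%, beside 3.92%). The 3 were Cd74, H2-Eb1 and H2-Aa, which serve the class II pathway of antigen presenting cells, with log2 fold changes of -0.36, -0.39 and -0.35 there and -0.15, -0.16 and -0.13 in all mice. Leaving out each mouse in turn gave between 12 (without Inactive replicate 4 or 6) and 22 higher members and 0 lower. The summed level of 10 macrophage markers had a median of 23.94 CPM in never trained mice, 35.77 CPM in Active and 23.66 CPM in Activity Reduction mice, with a range of 21.45 to 36.05 CPM in never and 15.22 to 39.32 CPM in ever trained mice. Of the 10 macrophage markers, 0 were at an unadjusted p-value under 0.05 in ever against never trained mice, and their part in the interferon values was not tested.

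Myoglobin stores oxygen in oxidative fibers, globins carry it in red cells, and heme synthesis serves both. The 5 higher members were Alas2 and Alas1, which encode the first enzyme of heme synthesis in erythroid and other cells, Cygb (cytoglobin), Mb (myoglobin) and Hba-a1. Alas2 had normalized counts from 65.01 to 115.6 in the Inactive mice, from 100.8 to 151.8 in the Active mice and from 92.4 to 193.8 in the Activity Reduction mice. The groups overlapped, and its log2 fold changes were 0.50 in the Active and 0.46 in the Activity Reduction group. Mb had a log2 fold change of 0.13 (SE 0.0569), and of 0.20 with the mouse-number division as a covariate. Cygb was at 0.35 in the Active and 0.08 in the Activity Reduction group (unadjusted p = 0.00507 between them). The summed erythroid markers had a median of 167.7 CPM in never and 181.8 CPM in ever trained mice, with 148.4 to 197.5 and 153.6 to 213.9 CPM, and their part in these values was not tested. The higher members were 3 without Active replicate 5 or 7, Activity Reduction replicate 7 or Inactive replicate 7.

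Contractile proteins come in slow and fast forms that mark the fiber types. Of 19 fast fiber members 2 were higher (10.5%, beside 3.79% of all genes) and 0 were lower. The 2 were Myh4, the myosin heavy chain of the fastest fibers (log2 fold change 0.16), and Mylpf, a fast myosin light chain (0.33). The Mylpf counts were between 86.69 and 183.3 normalized counts, low for a transcript known to be abundant in fast fibers, and 24.6% of its annotated exons overlap Septin1 on the opposite strand, so whether they measure Mylpf is uncertain. Of 18 slow fiber members, Atp2a2, the calcium pump of slow fibers, Myh7b, a slow-type myosin, and Tpm3, a slow tropomyosin, were lower at an unadjusted p-value under 0.05. Csrp3, a Z-disc protein, and Mb, which is in this list as well, were higher. The lower members were 16.7% and the higher 11.1% of the list, beside 3.68% and 3.79% of all genes. Atp2a2 ranged from 26876 to 33950 normalized counts in the Inactive mice (median 32318), from 12256 to 32807 in the Active mice (median 27906) and from 8933 to 27825 in the Activity Reduction mice (median 19342). The spread within the trained groups was wider than in the Inactive mice. Active replicate 3 and Activity Reduction replicates 1, 2 and 4 were the 4 lowest mice in Atp2a2 (12256, 13819, 14541 and 8933), and were also the 4 lowest in Myh7, Myh7b and Tpm3, whereas the other ever trained mice were between 19342 and 32807 in Atp2a2. The same 4 mice were among the 5 highest in Hoxa13, a gene of the distal limb (124.4, 123.9, 125.9 and 155.9), and what sets them apart was not tested. Atp2a2 had a log2 fold change of -0.24 in the Active and -0.70 in the Activity Reduction group (unadjusted p = 0.0383 between them). Myh7, the slow myosin heavy chain, was at -0.48 (unadjusted p = 0.0527). With the division as a covariate 3 slow fiber members were higher (16.7%, beside 3.63% of all genes) and 0 lower. In the later 13 mice 0 were lower, with log2 fold changes of -0.34 for Atp2a2 and -0.30 for Myh7b.

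Of 18 potassium channel members tested, 4 were higher (22.2%, beside 3.79% of all genes) and 0 lower (beside 3.68%). Beside Kcnj11 these were Abcc8, which encodes a regulatory subunit of the same channel (0.19), Kcna7, a voltage-gated channel of muscle (0.14), and Kcne4, a channel beta subunit (0.41). Abcc8 followed Kcnj11 in that its log2 fold change was 0.05 in the Active and 0.34 in the Activity Reduction group (unadjusted p = 0.0152 between them). The higher members were 2 without Inactive replicate 2, 5 or 6 or Activity Reduction replicate 3. Of 13 members of the sodium-potassium pump list, 0 were higher and 0 lower.

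Immediate early genes are transcribed within minutes of a stimulus such as contraction. Of 26 members tested, Jund, Jun, Ier5, Fosb and Nr4a1 were higher (19.2%, beside 3.79% of all genes) and 0 were lower. Jund, an AP-1 subunit, ranged from 915.5 to 1460 normalized counts in the Inactive mice (median 1252), from 981 to 1995 in the Active mice (median 1587) and from 1377 to 2042 in the Activity Reduction mice (median 1710). The groups overlapped, and its log2 fold changes were 0.36 in the Active and 0.41 in the Activity Reduction group. Jun was at 0.28 and Ier5 at 0.33, whereas Nr4a1, an orphan nuclear receptor, was at 0.23 in all mice and at 0.05 in the later 13. With the division as a covariate 6 members were higher (23.1%, beside 3.63% of all genes), and Nr4a1 was not among them. In the later mice 2 members were higher, Ier5 and Jund (7.69%, beside 3.83%). Without Inactive replicate 1, 2 or 6 or Activity Reduction replicate 3 there were 3 higher members.

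Of 33 members of glycolysis and glycogen metabolism, 5 were higher and 5 lower (15.2% each, beside 3.79% and 3.68% of all genes). With the division as a covariate 5 were higher (15.2%) and 1 lower (Ldhd, 3.03%), beside 3.63% and 3.7% of all genes. In the later 13 mice 8 were higher (24.2%) and 5 lower (15.2%), beside 3.83% and 3.92% of all genes. The higher members included Tpi1, a glycolytic enzyme (0.14), and Slc16a3, a lactate exporter (0.26), and the lower ones included Ldhd, which oxidizes D-lactate (-0.11). Insulin signaling and GLUT4 traffic had 2 higher (6.67%) and 4 lower members (13.3%) of 30. The lower ones were Exoc7, Pak1, a kinase of the actin cytoskeleton (-0.29), and the kinases Akt1 (-0.11) and Akt2 (-0.08). Pak1 was at -0.13 in the Active and -0.45 in the Activity Reduction group (unadjusted p = 0.00105 between them). Fatty acid uptake and oxidation had 0 higher and 3 lower members of 35 (8.57%), and 0 lower in the later 13 mice. Hadhb, a subunit of the mitochondrial trifunctional protein, was at -0.12. Respiratory complexes had 2 higher (3.92%, near the 3.79% of all genes) and 0 lower of 51, among them Cyc1 (cytochrome c1) at 0.10. The TCA cycle had 0 of 26 in either direction. With the division as a covariate, and also in the later 13 mice, 7 of 51 respiratory (13.7%) and 3 of 26 TCA cycle members (11.5%) were higher and 0 lower, beside 3.63% and 3.83% of all genes in these fits. Esrra and Esrrg, which encode estrogen-related receptors that drive mitochondrial genes, were on opposite sides of 0, with log2 fold changes of 0.17 (SE 0.0547) and -0.32 (SE 0.0797).

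Of 48 collagen and matrix members 8 were higher (16.7%) and 2 lower (4.17%), beside 3.79% and 3.68% of all genes. The median log2 fold change was 0.23 in the Active and -0.05 in the Activity Reduction group. Bgn, the proteoglycan biglycan, was at 0.46 and 0.08 in these groups (unadjusted p = 0.00361 between them). Col22a1, a collagen of tissue junctions, was at 0.16 and 0.18. Of 30 basement membrane members 6 were higher (20%) and 1 lower (3.33%), among them the laminin chain Lama4 at 0.44 and 0.06 and the integrin Itga1 at 0.27 and 0.20. With the division as a covariate the higher members were 2 of 48 (4.17%) and 2 of 30 (6.67%), beside 3.63% of all genes. The median log2 fold change of 10 fibroblast markers was 0.24 in the Active and -0.14 in the Activity Reduction group, and that of 10 tenocyte markers 0.36 and -0.59. The summed fibroblast markers were between 430 and 722.3 CPM in never and 444.2 and 921.4 CPM in ever trained mice. Summed tenocyte markers were between 14.02 and 87.03 CPM in never and 19.22 and 103.2 CPM in ever trained mice. No marker of either type was at 0 in all libraries, but 5 of the 10 tenocyte markers had a median below 1 CPM. Of these markers 0 fibroblast and 1 tenocyte marker (Scx) were at an unadjusted p-value under 0.05 in ever against never trained mice, and their part in the matrix values was not tested. Among 33 complement and macrophage function members, Folr2, a folate receptor of resident macrophages, was at 1.11 in the Active and 0.19 in the Activity Reduction group. Elovl6, a fatty acid elongase, was at 1.11 and 0.02. For ever against never trained mice Elovl6 was at 0.57, and at 0.32 with the division as a covariate (unadjusted p = 0.145). Inactive replicate 1, among the first 8 libraries, held 148 normalized counts of Elovl6 and the other Inactive mice 45.13 to 71.61. The study had picked Lama4, Folr2 and Elovl6 from the same libraries, so their values are no independent evidence.

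Of 32 autophagy members 1 was higher and 4 were lower (12.5%, beside 3.68% of all genes), and in the later 13 mice 9 were lower (28.1%, beside 3.92%). The lower members were 2 without Active replicate 3 or 6, 7 without Active replicate 2, and 8 without Inactive replicate 1 or Activity Reduction replicate 1 or 3. Gabarap, which coats forming autophagosomes, had normalized counts from 4573 to 5212 in the Inactive mice, from 3900 to 4589 in the Active mice and from 4188 to 5081 in the Activity Reduction mice, a log2 fold change of -0.12 (SE 0.0383). Hsp90ab1, a cytosolic chaperone, was at -0.21 in the Active and -0.09 in the Activity Reduction group. Sesn1, a stress-induced inhibitor of mTORC1, was at -0.24 and -0.28, and Ddit4l, another inhibitor of that kinase complex, at -0.45 and -0.44. In Ddit4l the Activity Reduction mice were split, with 2435, 3458 and 3872 normalized counts in replicates 5, 6 and 7. The other Activity Reduction mice were between 5927 and 7013, within the Inactive range of 4390 to 9221. The Active mice were between 4248 and 6086.

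The other transcripts that passed with DESeq2 were named after their values were seen. Higher were Rbm3, a cold-inducible RNA-binding protein (0.42), Erf, an ETS-type repressor (0.31), and Trim47, a ubiquitin ligase of the TRIM family (0.38). Lower were Gm31047 (-0.62) and Abhd18 (-0.38). Rbm3 ranged from 1167 to 2333 normalized counts in the Inactive mice (median 1532), from 1949 to 2934 in the Active mice (median 2153) and from 1817 to 2274 in the Activity Reduction mice (median 1977). The groups overlapped. Of the 19 transcripts, 10 also passed with DESeq2 and the mouse-number division as a covariate, and 5 in the later 13 mice (Exoc7, Igfbp5, Smyd2, Tbc1d16 and Tgtp1), and all 19 kept their direction in both. These fits reuse mice by which the 19 were picked, so the counts are no independent evidence.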

How the data were processed

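RNA of the gastrocnemius of 21 mice was sequenced as paired reads after poly(A) selection. The authors used fastp for trimming, STAR for alignment to GRCm39 and featureCounts for counting, with no versions or strand setting given in the sources used here, and the deposited values are raw counts per gene. The table labelled as normalized was checked against them and equalled them in all 857913 values, so it was left out. The members and gene lists were chosen with earlier results of these data known.

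One model of the 3 groups was fitted with edgeR 4.0.16 (R 4.3.3, TMM scaling, filterByExpr, quasi-likelihood test) and tested for the mean of Active and Activity Reduction minus Inactive. The thresholds were an adjusted p-value under 0.05 (Benjamini-Hochberg) and a log2 fold change over 0.25, as in the study, which names no scale for the fold change. Normalized counts are counts over the TMM-scaled library total, times the mean of these totals. Single transcripts were tested by a two-sided exact permutation test of mean log2 normalized counts with a pseudocount of 1. The mice are separate animals. Alternatives used DESeq2 1.42.0 and limma 3.58.1, and the steps were tested on simulated data. Transcripts named are the 10 higher and 10 lower with the smallest p-values, up to 3 members with the smallest p-values and the defining members of each list, transcripts the study named, those without overlap between groups, and related or overlapping genes. Coordinates come from GENCODE vM39 by gene symbol, where Qars and Gm31047 had no match. Depth was 38482455 to 59785132 counts per library, and a count of reads carries counting error beside the spread between mice. A gene that the rule names is not reported here.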

Additional observations from a re-analysis of the deposited data

Results flagged for a closer look

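For 104 transcripts in each of the 3 groups of 7 mice, 1 mouse stood apart from the other 6 in 21 cases, several of them in the same mouse, by a gap to the nearest mouse that was larger than Dixon's 95% critical value. Chance flags about 1 in 20 groups, and values are normalized counts.

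In the Active group, replicate 3 was high in Sh2d6 (229.8, nearest 114.5) and Hoxa13 (124.4, nearest 55.47) and low in Myh7b (246.7, nearest 717.4) and Pak1 (1465, nearest 1960). Replicate 4 was high in Psmb8 (358.1, nearest 256.5) and Irf7 (292.6, nearest 165.6). Replicate 2 was low in Igfbp7 (1016, nearest 1370) and replicate 6 was low in Ostn (2458, nearest 2772).

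In the Activity Reduction group, replicate 2 was low in Cct8 (4646, nearest 4978) and high in Alas2 (193.8, nearest 136.1). Replicate 4 was low in Stab1 (517.1, nearest 642.3), replicate 6 was high in Ndufb5 (8815, nearest 7871) and replicate 7 was high in Ak4 (853.9, nearest 591.4).

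In the Inactive group, replicate 1 was high in Igf1 (563.3, nearest 374.3), Ak4 (1206, nearest 934.3) and Elovl6 (148, nearest 71.61). It is the single Inactive mouse among the 8 lowest mouse numbers. Replicate 5 was high in Tbc1d16 (5934, nearest 5214) and Ostn (3945, nearest 3006) and low in Bgn (532.1, nearest 744.4), and DESeq2 made 0 calls without this mouse. Replicate 3 was high in Col22a1 (1703, nearest 1363) and replicate 4 was high in Hadhb (17130, nearest 15017).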

How the results depend on the processing

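The count of 0 transcripts for ever against never trained mice stayed at 0 with limma-voom, RLE factors, library totals, other filters, robust dispersion, a 2-group design, thinned counts, liver transcripts or the mouse-number division as a covariate, and without either the fold or the direction rule. It was 3 in the later 13 mice (Adamts8, Slc4a4 and Exoc7), 0 to 1 with edgeR without each mouse in turn, 19 with DESeq2 and 0 to 200 with DESeq2 without each mouse in turn. Additional DESeq2 fits and list counts were chosen after seeing the data. They gave 40 calls with the division as a covariate and 29 in the later mice. The cause of these shifts was not tested.

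For Active against Inactive the 0 calls became 62 with DESeq2, 48 with the covariate and 9 in the later mice with DESeq2, and 0 to 1 without single mice. For Activity Reduction against Inactive the 2 calls became 21 with DESeq2, 0 with RLE factors, 5 with library totals, 1 with the covariate, 0 in the later mice, 79 and 56 with DESeq2 with the covariate and in the later mice, and 0 to 6 without single mice. For Activity Reduction against Active the 0 calls became 115 with DESeq2, 1 with RLE factors, 1 with a filter of 1 CPM in 7 libraries, 82 with DESeq2 and the covariate, and 0 to 9 without single mice.

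The labels do not say whether replicate numbers pair the mice, and the main fit treats them as unpaired. Of 21 same-numbered pairs, 7 had a correlation of deviations over 0.1 (range -0.222 to 0.471). Differently numbered pairs were not computed, so these values cannot decide whether the numbers pair mice. With a replicate block, edgeR gave 0 calls for ever against never trained (smallest adjusted p = 0.139), 0 for Active and 4 for Activity Reduction against Inactive, and 0 between the trained groups, and DESeq2 with the block gave 46, 101, 70 and 167. Of the 19 DESeq2 calls for ever against never trained mice, 11 also passed with DESeq2 and the block, and all 19 kept their direction.

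Of the 104 transcripts followed, Igf1 alone changed direction, to -0.078 with the covariate, -0.129 in the later mice, -0.0307 with liver transcripts as a covariate, -0.0819 with DESeq2 and the covariate and -0.130 with DESeq2 in the later mice. Without single mice, members at an unadjusted p-value under 0.05 numbered 3 to 10 higher in collagens and matrix, 3 to 8 higher in glycolysis, 1 to 6 lower in slow fiber, 2 to 8 lower in autophagy and 0 to 7 higher in the IGF axis. Depth limits the low transcripts most, such as H2-Q7 and Blnk, where counting error adds to the spread between mice.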

Other observations

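Limb identity genes, which keep their positional pattern in adult muscle, were followed as another list. Of 39 members tested, 5 were higher in ever trained mice (12.8%, beside 3.79% of all genes) and 1 was lower (2.56%, beside 3.68%) at an unadjusted p-value under 0.05. Without Active replicate 3 only 1 member was higher, and without Activity Reduction replicate 1, 2 or 6, Active replicate 6 or Inactive replicate 3 there were 3. Lbx1, a factor of migrating muscle precursors, had a log2 fold change of 0.09 in the Active and 0.24 in the Activity Reduction group. Hoxa13, a gene of the distal limb, was low, with normalized counts from 35.97 to 57.34 in the Inactive mice, from 25.05 to 124.4 in the Active mice and from 51.06 to 155.9 in the Activity Reduction mice. The Hoxa13 log2 fold change was 0.71 in all mice and 0.26 in the later 13 mice.

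The study had named several transcripts for activity reduction from the same libraries, so a difference in that group restates the choice. Beside Smyd2, Ostn, which encodes the secreted peptide musclin, was at -0.10 in the Active and -0.53 in the Activity Reduction group. Ak4, a mitochondrial adenylate kinase, was at -0.06 and -0.62, and Srrm4os was at -0.12 and -0.74. En1, a homeobox gene, was at -0.09 and 0.38, Hoxa11os at -0.15 and 1.06, and Zfhx4, which encodes a zinc finger homeobox protein, at 0.01 and -0.33, so these 3 lay on opposite sides of 0 in the trained groups.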
